A study of Mus musculus with 12 samples.

Results

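The elastic fibre genes described here are Eln, Fbn1, Fbn2, Fbln1, Fbln2, Fbln5, Efemp1, Efemp2, Lox and Loxl1. They were chosen by name, as the elastin, fibrillin, fibulin and lysyl oxidase genes of the deposited count table. The choice was made with earlier results of these data known. The members make up 10 of the 47729 genes listed. All 10 passed the filter on low counts, which kept 14523 genes, so no member was lost to it.

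RNA was sequenced from mesenchymal cells of the uterus of female Pdgfrb-BAC-eGFP mice, whose green fluorescent protein (GFP) is driven by a bacterial artificial chromosome that carries Pdgfrb, a receptor gene of pericytes and fibroblasts. The uteri were healthy, the mice were cycling, and cells were freed by enzymes and sorted by fluorescence, per the labels and the series text. The 6 Naive libraries hold GFPtotal cells, which are the bright perivascular cells together with the weakly fluorescent fibroblasts, and the 6 Stromal libraries hold the weakly fluorescent cells alone, named GFPdim in the labels and GFPlow in the series text. A Naive library is therefore a mixture, and no source used here gives the proportion of its bright cells. The strain, sex and tissue were common to both groups, and neither ages nor cycle stages are in the labels. The series describes 12 mice, but no label ties a library to a mouse, so p-values measure only the spread between these libraries.

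Total counts were 12631266 to 14950639 in Naive and 14339804 to 18425596 in Stromal libraries, and mitochondrial genes took 32.4% to 49.0% of them. This share was 32.4% to 40.5% in Naive 3, 4 and 5, 45.3% to 49.0% in Naive 1, 2 and 6 and 35.1% to 45.7% in Stromal libraries, and its part in the results was not tested. The sort was checked on 2 genes: the pericyte gene Rgs5 stood at 782 ± 114 CPM (counts scaled to the depth of each library) in Naive and 4.80 ± 3.95 CPM in Stromal libraries, and Pdgfrb at 114 ± 36.0 and 65.1 ± 15.0 CPM (SD, n = 6 each). On the first principal component of all genes (34.0% of the variance), Naive 3, 4 and 5 lay at 102 to 107, away from Naive 1, 2 and 6 (−3.82 to 6.66) and from Stromal libraries (−64.6 to −31.1). Results that rest on those 3 libraries are given with and without them, which was decided after seeing the data. The header of the count file of Stromal 6 names another alignment (N8), so 1 library is at odds with its label, and calls are also given without it.

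Summed pericyte markers stood at 1431 to 1669 CPM in Naive 3, 4 and 5, at 942 to 1268 CPM in Naive 1, 2 and 6 and at 12.2 to 31.2 CPM in Stromal libraries, and 8 of the 8 tested markers (10 listed) were called higher in Naive. Summed smooth muscle markers stood at 299 to 408, 190 to 228 and 45.8 to 94.9 CPM in the same order, with 4 of 7 tested markers called higher (9 listed). The 6 fibroblast markers, which include the abundant collagen and decorin genes, summed to 23151 to 27170, 37422 to 39878 and 15275 to 23080 CPM, with 1 called higher. Mesothelial markers summed to 67.1 to 79.5, 43.2 to 46.8 and 71.6 to 101 CPM (5 listed, with Msln and Upk3b at 0 in all libraries). No library had counts for more than 2 of them, and 1 was tested. Endothelial markers summed to at most 60.0 CPM (Cldn5 was at 0), with 1 of 4 tested, Cdh5, called lower in Naive. Epithelial markers summed to at most 12.9 CPM, leukocyte markers to at most 6.48 CPM, glial markers to at most 4.99 CPM and erythroid markers to at most 15.8 CPM, with the 4 globin genes at 0. The part these cell types had in the results on the elastic fibre genes was not tested.

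Elastic fibres give arteries, skin, lung and the pelvic organs their recoil, and in the uterus they lie in the muscle layer, the cervix and the vessel walls. Fibrillins form microfibrils, tropoelastin is brought onto them with the help of fibulins, and lysyl oxidases, which use copper, cross-link it into an insoluble core. Fibroblasts and smooth muscle cells make these proteins.

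Most elastic fibre genes were expressed at overlapping levels in GFPtotal and GFPdim cells, as were most genes. Every Naive library lay above every Stromal library for 1 of 10 members and 2.86% of all genes tested. The reverse held for 0.806% of all genes. The genes for fibulin-5 (Fbln5) and fibulin-3 (Efemp1) were higher in Naive libraries, at log2 fold changes of 1.23 and 2.79 (Naive minus Stromal). For Efemp1 this rested on Naive 3, 4 and 5. The other 3 Naive libraries (47.6 to 53.5 CPM) lay within the Stromal range, below Stromal 1 alone (66.2 CPM) and above the Stromal median of 21.0 CPM. The log2 fold change was 0.65 without Naive 3, 4 and 5 (edgeR's quasi-likelihood test, adjusted p = 0.534). The call was lost in 8 of 12 fits that left out 1 library. Elastin, both fibrillins, fibulin-1, fibulin-2, fibulin-4 and both lysyl oxidases did not pass the test. Within the Naive group, elastin, both fibrillins and fibulin-2 were low in the same 3 libraries, Naive 3, 4 and 5, in which fibulin-1 and fibulin-3 were high. Of all genes tested, 15.7% lay lower in these 3 than in the other Naive libraries and 16.7% higher.

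By edgeR's quasi-likelihood test with Benjamini-Hochberg adjustment over all 14523 genes and a threshold of 0.05, 2 of the 10 members were called higher in Naive, where 4.55% of all genes tested were, and 0 were called lower, where 0.854% of all genes were. Scaled by total library size alone, 505 genes were called higher and 257 lower in place of 661 and 124. At an unadjusted p below 0.05, 4 members were higher (Fbln1 and Lox beside the called genes) and 0 lower, against 12.8% and 7.07% of all genes. DESeq2 called 3 members higher and 0 lower, against 7.11% and 2.4% of all genes, and limma-voom 1 and 0, against 4.65% and 1.58%. The median log2 fold change of the members was 0.11, against −0.00060 over all genes tested, with 7 positive and 3 negative values. Every Naive library lay above every Stromal library for 1 member, Fbln5, which holds for 2.86% of all genes tested, and the reverse held for 0 members and 0.806% of all genes. In these bulk samples, fewer cells of a type and less RNA per cell cannot be told apart.

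**Figure D1:**
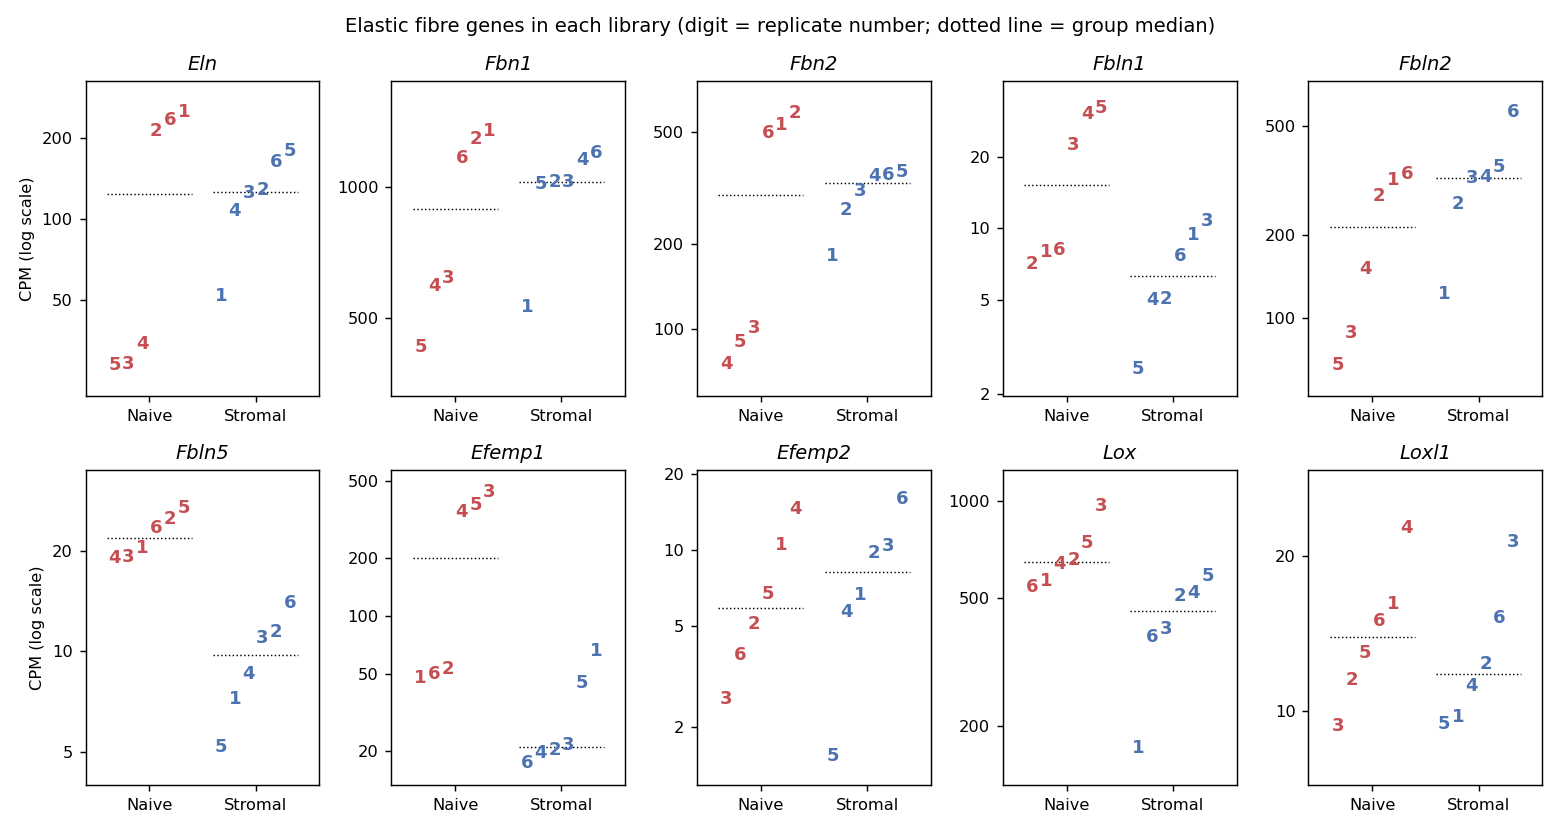
Depth-scaled counts (CPM, log scale, with a range of its own in each panel) of the 10 elastic fibre genes in each library; digits are replicate numbers, red for Naive and blue for Stromal, and dotted lines are group medians. Naive 3, 4 and 5 lie below Naive 1, 2 and 6 for 4 genes and above them for 2, as for 15.7% and 16.7% of all genes tested. The groups are wholly separate for Fbln5 alone, and every Naive library lies above every Stromal library for 2.86% of all genes.

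With Naive 3, 4 and 5 left out, 1 member was called higher in Naive, Fbn2, where 1.56% of all genes were, and 0 were called lower, where 0.318% were. Those libraries were singled out from these data and hold the lowest values of Fbn2, so its call is a description. The median log2 fold change of the members was then 0.38, against −0.06 over all genes tested. This median is a description too. Those libraries also hold the lowest Naive values of Eln, Fbn1 and Fbln2, and the highest of Efemp1 and Fbln1. Without Stromal 6, 1 member was called higher and 0 lower, where 3.62% and 0.469% of all genes were. It was Fbln5 (log2 fold change 1.36, adjusted p = 0.00722), and Efemp1 was not called (2.66, adjusted p = 0.0885). The plot of fold changes shows the first of these fits beside the fit to all libraries: Eln, both fibrillins and Fbln2 lie further to the right without those libraries, Fbln1 and Efemp1 further to the left, and Fbln5 at almost the same place.

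**Figure D2:**
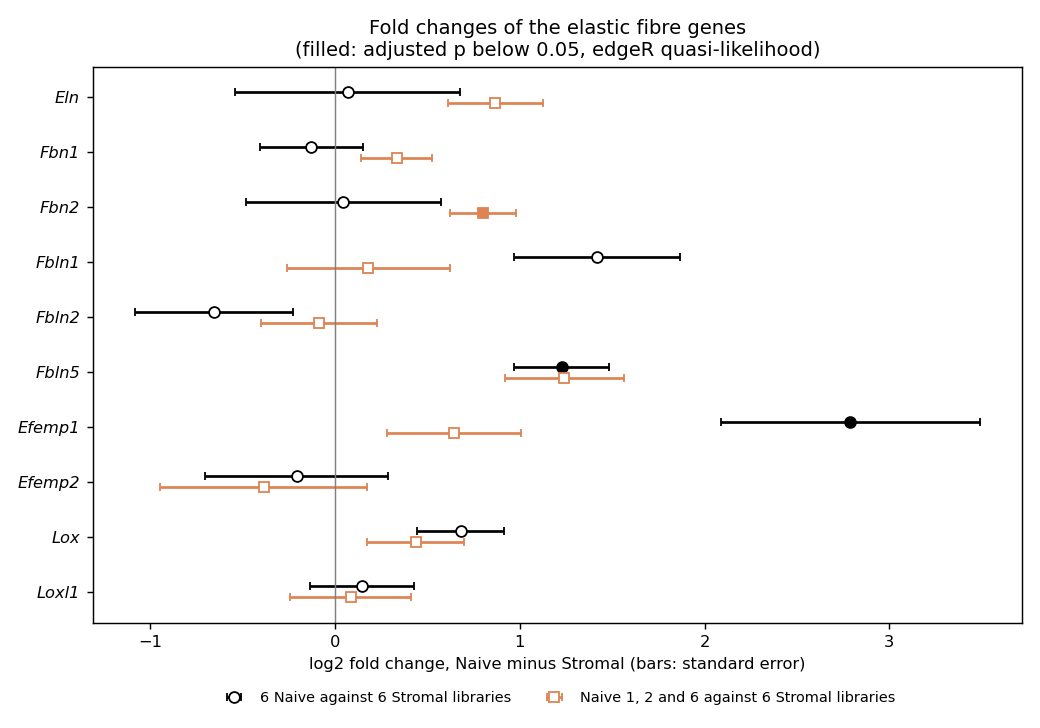
Log2 fold change of each elastic fibre gene, Naive minus Stromal, with bars of 1 standard error, from all 12 libraries (circles) and without Naive 3, 4 and 5 (squares); filled symbols have an adjusted p below 0.05. Fbln5 and Efemp1 are filled with all libraries and Fbn2 alone without those 3.

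Eln (ENSMUSG00000029675, chromosome 5, 134702593 to 134747323, minus strand, GRCm38) encodes tropoelastin, the soluble precursor of the elastic core. It stood at 250, 213 and 233 CPM in Naive 1, 2 and 6 and at 29.1, 34.6 and 28.7 CPM in Naive 3, 4 and 5. In Stromal libraries it stood at 51.7 to 178 CPM, with a median of 126 CPM and the lowest value in Stromal 1. The Stromal libraries thus lay between the high and the low Naive libraries, with no value of theirs inside either set. The Naive values spanned 8.70-fold and the Stromal values 3.44-fold. Group means were 131 ± 111 and 125 ± 44.6 CPM (SD, n = 6 each), and the log2 fold change of 0.07 (SE 0.61, adjusted p = 0.971) was −0.15 when scaled by total library size alone. Without Naive 3, 4 and 5 it was 0.87 (SE 0.26) and was not called (adjusted p = 0.124). Of its 8098 exonic bases, 3.30% are shared with a gene on the opposite strand (Gm30003), and the counting did not use strand.

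The fibrillins build the microfibrils on which elastin is laid down, and both also hold growth factors of the TGF-beta family in the matrix. Fbn1 (ENSMUSG00000027204, chromosome 2, 125300594 to 125507993, minus strand) stood at 1349, 1288 and 1168 CPM in Naive 1, 2 and 6, at 617, 592 and 429 CPM in Naive 3, 4 and 5, and at 529 to 1198 CPM in Stromal libraries (median 1028). Stromal 1 was the lowest Stromal library by a wide margin, with 529 CPM where the next had 1015 CPM. The log2 fold change was −0.13 (SE 0.28, adjusted p = 0.855), and 0.33 without Naive 3, 4 and 5 (adjusted p = 0.543). An overlapping gene on the opposite strand, Gm9913, shares 20.1% of the 12128 exonic bases of Fbn1, and without strand the reads of the 2 genes cannot be told apart there.

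Fbn2, the fibrillin best known from development, lies on the minus strand of chromosome 18 (ENSMUSG00000024598, 58008623 to 58209926). It stood at 529, 581 and 495 CPM in Naive 1, 2 and 6, and at 101, 75.3 and 90.1 CPM in Naive 3, 4 and 5. Stromal libraries ranged from 182 to 359 CPM with a median of 329 CPM, below all of the first 3 and above all of the second. This is the order seen for Eln. The log2 fold change of 0.04 (SE 0.53, adjusted p = 0.977) was −0.17 when scaled by total library size alone. When Naive 3, 4 and 5 were left out, Fbn2 was called higher in Naive, at 0.80 (SE 0.18, adjusted p = 0.0269, edgeR's quasi-likelihood test). Those 3 libraries hold its lowest values and were singled out from these data, so this call is a description. Over the 20 alternative settings it was the only call of Fbn2, and the sign was reversed in 7.

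Fbln5 (ENSMUSG00000021186, chromosome 12, 101746565 to 101819055, minus strand) encodes fibulin-5, which binds tropoelastin and lysyl oxidase-like 1, and mice without it have loose skin and prolapse of the pelvic organs. It stood at 19.1 to 27.0 CPM in Naive libraries (median 22.0) and at 5.17 to 14.0 CPM in Stromal libraries (median 9.75). The groups did not overlap, and Naive 3, 4 and 5 lay among the other Naive libraries. Group means were 22.4 ± 3.27 and 9.55 ± 3.18 CPM (SD, n = 6 each), with a log2 fold change of 1.23 and an SE of 0.26 (adjusted p = 0.00888, edgeR's quasi-likelihood test). Its Naive values spanned 1.42-fold, the narrowest spread of the 10 members in that group. The call was lost without Naive 3, 4 and 5, where the log2 fold change was 1.24 (SE 0.32, adjusted p = 0.0602), and was kept in each of the 19 other settings (adjusted p = 0.000151 to 0.0345).

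Efemp1 (ENSMUSG00000020467, chromosome 11, 28853204 to 28926743, plus strand) encodes fibulin-3, a short fibulin of fascia and other connective tissue. It stood at 441, 348 and 377 CPM in Naive 3, 4 and 5 and at 47.6, 53.5 and 50.2 CPM in Naive 1, 2 and 6. Stromal libraries ranged from 17.4 to 66.2 CPM with a median of 21.0 CPM, and Stromal 1 and 5 (66.2 and 45.4 CPM) stood above the other 4, which had at most 21.6 CPM. Naive 1, 2 and 6 therefore lay within the range of the Stromal libraries, and Naive 3, 4 and 5 far above it. Group means were 220 ± 188 and 31.8 ± 19.8 CPM (SD, n = 6 each), with a log2 fold change of 2.79 and an SE of 0.70 (adjusted p = 0.0407, edgeR's quasi-likelihood test). Without Naive 3, 4 and 5 it was 0.65 (SE 0.36, adjusted p = 0.534). The call was also lost without Naive 3, 4 or 5 or Stromal 2, 3, 4, 5 or 6 alone (adjusted p = 0.0606 to 0.0929), with limma-voom, when scaled by total library size alone and with no filter on low counts.

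Fbln1 (ENSMUSG00000006369, chromosome 15, 85205949 to 85286535, plus strand) encodes fibulin-1, found in elastic fibres and basement membranes. It had the same order as Efemp1 at a lower level: 22.4, 30.1 and 32.1 CPM in Naive 3, 4 and 5, and 7.97, 7.04 and 8.11 CPM in Naive 1, 2 and 6. Stromal libraries ranged from 2.55 to 10.8 CPM (median 6.32) and took in all of the latter 3. The log2 fold change of 1.42 (SE 0.45) did not pass edgeR's quasi-likelihood test (adjusted p = 0.0765). It passed with DESeq2 (1.40, adjusted p = 0.0234) and without Naive 1 or Naive 2 alone (adjusted p = 0.0470 and 0.0428), and was 0.18 without Naive 3, 4 and 5 (adjusted p = 0.928).

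The sequences before RefSeq starts of Efemp1, Fbln5 and Fbln1 are shown as those of the called members and of the member nearest in pattern to Efemp1. They are from RefSeq (GRCm38.p6), 5′ to 3′ on the strand of the gene, with exons left out and capitals for matches to the motifs named after them.
Efemp1, chr11:28852955-28853203, plus strand: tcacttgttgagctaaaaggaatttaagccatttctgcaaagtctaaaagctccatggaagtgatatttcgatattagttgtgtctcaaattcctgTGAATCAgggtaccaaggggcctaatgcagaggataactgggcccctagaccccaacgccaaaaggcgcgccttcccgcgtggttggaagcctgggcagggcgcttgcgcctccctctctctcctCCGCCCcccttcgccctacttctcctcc
Fbln1, chr15:85205699-85205948, plus strand: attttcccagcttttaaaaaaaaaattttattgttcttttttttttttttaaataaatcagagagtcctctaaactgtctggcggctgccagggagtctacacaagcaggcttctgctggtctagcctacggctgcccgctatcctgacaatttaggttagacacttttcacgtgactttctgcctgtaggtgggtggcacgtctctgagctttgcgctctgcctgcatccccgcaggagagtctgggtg
Fbln5, chr12:101819120-101819369, minus strand: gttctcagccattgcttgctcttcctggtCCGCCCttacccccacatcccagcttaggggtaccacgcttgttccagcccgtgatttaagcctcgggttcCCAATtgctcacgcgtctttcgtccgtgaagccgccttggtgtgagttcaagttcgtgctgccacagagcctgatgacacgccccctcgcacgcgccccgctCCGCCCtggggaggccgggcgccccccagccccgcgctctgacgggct
RefSeq entries were found for 6 of the 10 members among 32851 promoters.

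A set of 5 short motifs was searched on both strands of these windows: the TATA box (TATAAA, in 12.4% of all promoter windows of 250 bases), the CCAAT box (CCAAT, 33.8%), the GC box (GGGCGG, 32.7%), the AP-1 site (TGANTCA, 6.75%) and the TEAD site (GGAATG, 12.6%). The window of Efemp1 held 1 match to the AP-1 letters, 154 to 148 bases before the start, and 1 GC box on the minus strand of the gene, 29 to 24 bases before it. In the Fbln5 window shown there were 1 CCAAT box, 150 to 146 bases before the start, and 2 GC boxes on the opposite strand, at 48 to 43 and 221 to 216 bases. None of the 5 motifs had a match in the Fbln1 window. Fbln5 has another RefSeq start inside the gene, and its window (101818485 to 101818733, not shown) held no match and had a GC content of 49.4%. The windows shown had a GC content of 53.4% for Efemp1, 46.4% for Fbln1 and 65.2% for Fbln5, against a median of 52.4% over all promoters. A match is a description of letters and not a measured binding site.

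Fbln2 (ENSMUSG00000064080, chromosome 6, 91212455 to 91272540, plus strand) encodes fibulin-2, which lies where microfibrils meet elastin. Like the fibrillins, Fbln2 was lower in Naive 3, 4 and 5 than in Naive 1, 2 and 6, but the latter lay within its Stromal range. It stood at 317, 276 and 332 CPM in Naive 1, 2 and 6, at 88.3, 151 and 67.5 CPM in Naive 3, 4 and 5, and at 122 to 559 CPM in Stromal libraries (median 324). Naive 3 and 5 were lower than every Stromal library, and Stromal 6 was the highest of all 12. The difference in log2 between the groups was −0.66 (SE 0.43, adjusted p = 0.443), −0.09 without Naive 3, 4 and 5 and −0.43 without Stromal 6.

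Efemp2 (ENSMUSG00000024909, chromosome 19, 5473973 to 5481853, plus strand) encodes fibulin-4, which binds tropoelastin and lysyl oxidase and without which mice form no intact elastic fibres. It was among the weakest members, with 21 to 294 counts per library, and stood at 2.57 to 14.5 CPM in Naive libraries (median 5.91) and at 1.53 to 16.0 CPM in Stromal libraries (median 8.18). The groups overlapped over nearly their whole range, and Naive 3, 4 and 5 lay on both sides of the other Naive libraries. The log2 fold change of −0.21 (SE 0.49, adjusted p = 0.868) became 0.08 without Stromal 6.

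Lox (ENSMUSG00000024529, chromosome 18, 52516069 to 52529867, minus strand) encodes lysyl oxidase, which cross-links both elastin and collagen. It stood at 544 to 965 CPM in Naive libraries (median 649, highest in Naive 3) and at 171 to 588 CPM in Stromal libraries (median 455, lowest in Stromal 1). The groups overlapped only in that Naive 1 and Naive 6 (564 and 544 CPM) lay below Stromal 5 (588 CPM). Group means were 685 ± 154 and 428 ± 148 CPM (SD, n = 6 each), and the log2 fold change of 0.68 (SE 0.24) did not pass edgeR's quasi-likelihood test (adjusted p = 0.112). It was 0.44 without Naive 3, 4 and 5 (adjusted p = 0.568).

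Loxl1 (ENSMUSG00000032334, chromosome 9, 58287723 to 58313212, minus strand) encodes lysyl oxidase-like 1, an enzyme directed at elastin, and mice without it have prolapse of the pelvic organs after giving birth. It stood at 9.36 to 22.6 CPM in Naive libraries (median 14.0) and at 9.46 to 21.3 CPM in Stromal libraries (median 11.8), so that the ranges nearly coincided. On the log2 scale the difference was 0.14 (SE 0.28, adjusted p = 0.833), and −0.025 without Naive 4 alone.

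Stromal 1 had the lowest CPM of the Stromal libraries for 5 of the 10 members (Eln, Fbn1, Fbn2, Fbln2 and Lox) and the highest for 1 (Efemp1). How often that library was lowest or highest over all genes was not counted. Over all members, Naive 3, 4 and 5 lay below Naive 1, 2 and 6 for 4 (Eln, Fbn1, Fbn2 and Fbln2), as for 15.7% of all genes tested, and above them for 2 (Efemp1 and Fbln1), as for 16.7%. These 3 libraries were singled out from all genes, these 10 included, so the counts are descriptions with no test.

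Per length of exons, Lox had the highest mean level in both groups, with 142 ± 32.1 CPM per kb in Naive and 89.0 ± 30.8 CPM per kb in Stromal libraries (SD, n = 6 each). In Stromal libraries it was followed by Fbn1 (81.8 ± 19.7), Fbln2 (50.8 ± 22.3), Fbn2 (28.9 ± 6.59), Efemp1 (15.6 ± 9.71) and Eln (15.5 ± 5.50 CPM per kb). Loxl1, Efemp2, Fbln5 and Fbln1 had 3.96 ± 1.34, 3.14 ± 1.85, 1.64 ± 0.55 and 1.54 ± 0.70 CPM per kb. The ranges of each pair of neighbours in this order overlapped, and Lox exceeded Fbn1 in 3 of 6 libraries, but Fbn1 exceeded Fbln2, Fbln2 exceeded Fbn2 and Eln exceeded Loxl1 in 6 of 6 libraries.

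In Naive libraries Efemp1 came after Lox, at 108 ± 92.1 CPM per kb, followed by Fbn1 (74.8 ± 33.4), Fbln2 (32.2 ± 18.5), Fbn2 (29.8 ± 23.5) and Eln (16.2 ± 13.7 CPM per kb). Loxl1, Fbln1, Fbln5 and Efemp2 again had the lowest mean levels, from 4.37 ± 1.39 down to 2.72 ± 1.70 CPM per kb. All neighbours overlapped in this group too, and the place of Efemp1 differed between its libraries: it exceeded both Lox and Fbn1 in 3 of 6, Naive 3, 4 and 5. The place of Eln differed as well. It exceeded Loxl1 in 4 of 6, and in Naive 3, 4 and 5 it lay below Fbln1 (3.54 to 4.27 against 5.12 to 7.34 CPM per kb).

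As a share of the summed per-length level of the 10 genes, Efemp1 took 41.6% to 44.5% in Naive 3, 4 and 5, 5.89% to 6.59% in Naive 1, 2 and 6, and 2.50% to 19.9% in Stromal libraries. Eln took 0.708% to 1.04%, 6.48% to 7.76% and 3.91% to 6.37% in the same order, and Fbn2 1.75% to 2.07%, 12.6% to 13.7% and 8.62% to 10.6%. Fbn1 took 8.51% to 11.9% in Naive 3, 4 and 5 and 25.7% to 28.0% in Naive 1, 2 and 6, where Stromal libraries had 24.3% to 29.9%. The share of Lox was 32.5% to 39.6%, 29.5% to 33.7% and 21.8% to 36.2%, and overlapped between all 3 sets. In the plot of shares, Lox and Efemp1 are the largest parts of Naive 3, 4 and 5. In the other libraries Efemp1 is at most 19.9% (Stromal 1), and the largest part of Fbln2 is in Stromal 6 (25.6%).

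**Figure D3:**
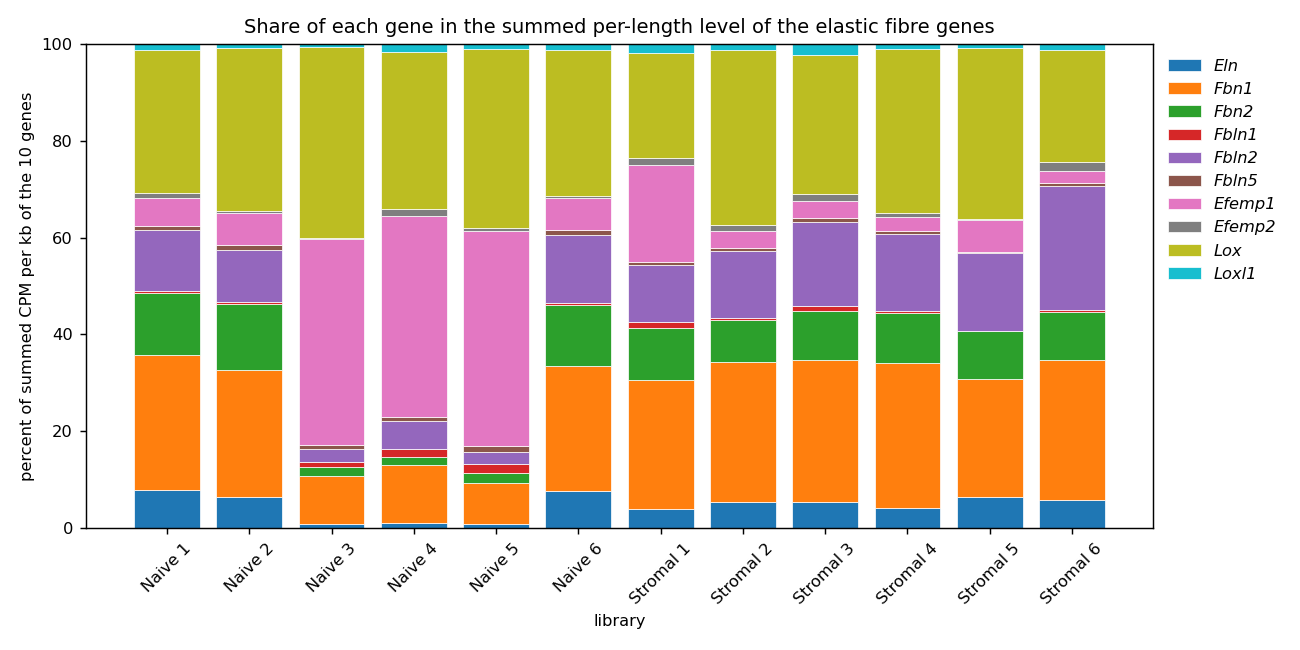
Percent of the summed CPM per kb of the 10 elastic fibre genes that each gene takes, as stacked bars for each library, which add up to 100%. In Naive 3, 4 and 5 Efemp1 takes 41.6% to 44.5% and Eln at most 1.04%.

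Ratios of counts between 5 pairs of members were compared, since a ratio within a library does not depend on how libraries are scaled. They pair relatives (Fbn1 to Fbn2, Fbln1 to Fbln2, Efemp1 to Efemp2, Lox to Loxl1) and a fibulin with the elastin it binds (Fbln5 to Eln). Fbn1 had 4.76 to 7.86 times the count of Fbn2 in Naive 3, 4 and 5, 2.22 to 2.55 times in Naive 1, 2 and 6, and 2.83 to 3.88 times in Stromal libraries. The 3 sets did not overlap, with the Stromal libraries in the middle. As means of the log2 ratio, 1.93 ± 0.79 in Naive and 1.70 ± 0.16 in Stromal libraries (SD, n = 6 each) differed by 0.23 (exact two-sided permutation test, p = 0.513). Without Naive 3, 4 and 5 the difference was −0.46 (exact p = 0.0238, and 0.119 adjusted over the 5 ratios). The exact p is the smallest that 3 against 6 libraries allow, and the libraries left out were singled out from these data.

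Fbln5 had 0.553 to 0.942 counts for each count of Eln in Naive 3, 4 and 5, against 0.0823 to 0.118 in Naive 1, 2 and 6 and 0.0292 to 0.140 in Stromal libraries. Naive 1, 2 and 6 lay within the Stromal range. The log2 ratio differed by 1.76 between groups, at −1.92 ± 1.57 and −3.68 ± 0.75 (exact two-sided permutation p = 0.0498, and 0.105 adjusted by Benjamini-Hochberg over the 5 ratios). It was 0.35 without Naive 3, 4 and 5 (exact p = 0.548).

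Efemp1 had 24.0 to 169 times the count of Efemp2 in Naive 3, 4 and 5, 4.55 to 13.0 times in Naive 1, 2 and 6 and 1.09 to 29.0 times in Stromal libraries. The highest Stromal value, in Stromal 5, and the highest Naive value, in Naive 3, rest on the lowest Efemp2 counts of their groups (21 and 36). The log2 ratio differed by 2.47 (exact two-sided permutation p = 0.0411, adjusted p = 0.105), and by 3.04 without Stromal 5, which passed the threshold (adjusted p = 0.0433). Of the 12 fits that left out 1 library, this was the only 1 that passed, and without Naive 3 the difference was 1.90 (adjusted p = 0.209). The difference was 1.05 without Naive 3, 4 and 5 (exact p = 0.357, adjusted p = 0.675). The log2 ratio of Fbln1 to Fbln2 differed by 2.05 (exact p = 0.0628, adjusted p = 0.105) and that of Lox to Loxl1 by 0.60 (exact p = 0.171, adjusted p = 0.214). With Naive 3, 4 and 5 left out, these 2 differences were 0.29 (exact p = 0.690) and 0.40 (exact p = 0.405). With all libraries, none of the 5 ratios passed after adjustment, where the smallest p the design allows is 0.00216. The plot of ratios shows Naive 3, 4 and 5 above all other libraries for Fbn1 to Fbn2, Fbln1 to Fbln2 and Fbln5 to Eln, but not for Efemp1 to Efemp2 or Lox to Loxl1.

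**Figure D4:**
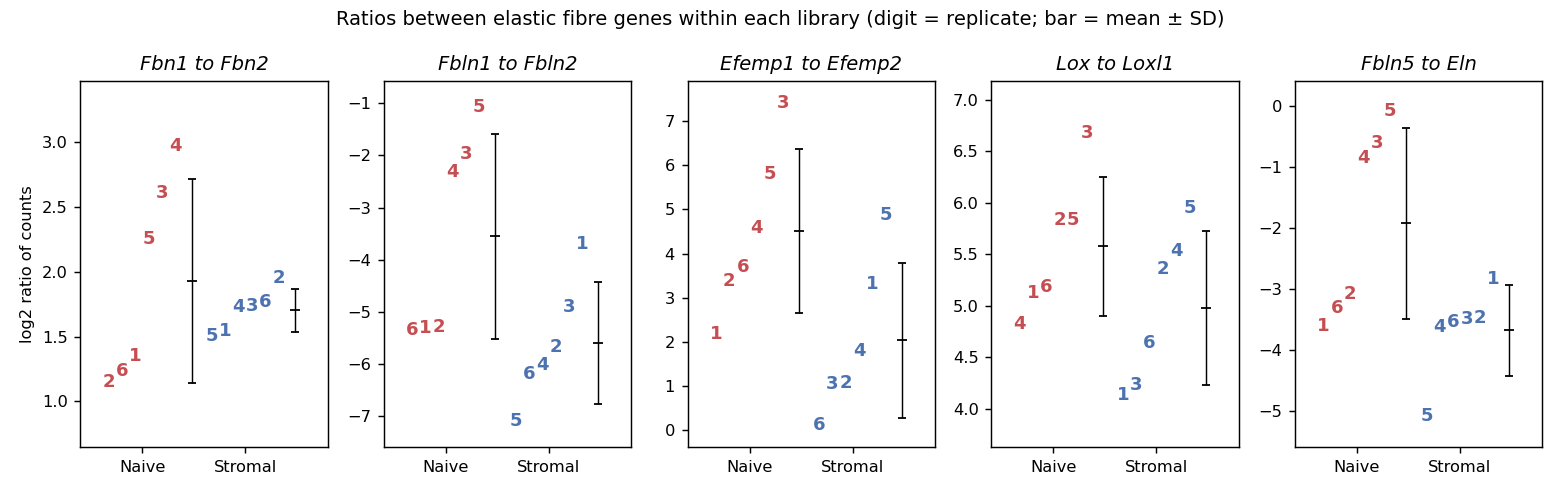
Log2 ratio of the counts of 2 elastic fibre genes in each library, with digits for replicate numbers, red for Naive and blue for Stromal, and bars for the mean ± SD of a group; each panel has its own vertical range. For Fbn1 to Fbn2 the Stromal libraries lie between Naive 1, 2 and 6 and Naive 3, 4 and 5.

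Likeness of pattern was measured as the root mean square difference between centred log2 CPM over the 12 libraries, where 0 is an identical pattern. Among members the closest were Eln and Fbn2, at 0.30, followed by Fbn1 and Fbln2, at 0.44. Efemp1 was nearest to Fbln1, at 1.01, and farthest from Eln, at 2.63. Among the 6562 tested genes with a mean log2 CPM of 3 or more, Fbn2 was the gene most like Eln. Trpc6, a calcium-permeable channel gene, came next at 0.34, then Kit, the receptor gene for stem cell factor, at 0.38, the kinase gene Mast2 at 0.40 and Trabd2b, which encodes a protease acting on Wnt proteins, at 0.41. Fbln2 came in at rank 31 and Fbn1 at rank 115, whereas Fbln1 was at 6391 and Efemp1 at 6516. All 5 nearest genes were uncalled between the groups by edgeR's quasi-likelihood test (adjusted p = 0.601 to 0.997). They were chosen for their likeness to Eln, itself uncalled, so this is no separate result.

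Around the 10 members stand genes whose products bind, mature or break down elastic fibres, of which 37 were listed and 29 had counts enough to be tested. Of the 29, 4 were called higher in Naive and 0 lower by edgeR's quasi-likelihood test, against 4.55% and 0.854% of all genes. DESeq2 also called 4 higher and 0 lower, against 7.11% and 2.4%, as did limma-voom, against 4.65% and 1.58%. At an unadjusted p below 0.05 by edgeR, Adamts17, Adamtsl4, Ltbp1 and the elastin receptor gene Neu1 were higher as well. At that threshold 0 were lower, where 12.8% of all genes were higher and 7.07% lower. The list was written with earlier results of these data known, so these counts are descriptions. The median log2 fold change of the 29 was 0.22, with 20 positive and 9 negative values. The called genes were 3 of the 7 fibrillin-binding ADAMTS and ADAMTS-like genes and 1 of 2 tested relatives of the fibulins. The other 8 had 22 to 152 counts in all 12 libraries together.

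Thsd4 encodes ADAMTSL6, a secreted protein that binds fibrillin-1 and promotes microfibril assembly. It stood at 14.9 to 30.6 CPM in Naive and 0.569 to 4.86 CPM in Stromal libraries, with no overlap and with Naive 1 the highest. The log2 fold change was 2.97 (SE 0.42, adjusted p = 0.000425), and 3.15 without Naive 3, 4 and 5 (adjusted p = 0.00151). Adamts6, a protease of the same family that acts on fibrillin microfibrils, stood at 24.6 to 46.5 CPM in Naive and 4.52 to 17.1 CPM in Stromal libraries, again without overlap (log2 fold change 1.49, SE 0.31, adjusted p = 0.00897). Adamtsl5, which also binds fibrillin, differed by 1.65 (SE 0.43, adjusted p = 0.0306). Neither was called without Naive 3, 4 and 5 (1.19 and 1.49, adjusted p = 0.138 and 0.210), and Adamtsl5 also lost its call without Naive 4, 5 or 6 or Stromal 1, 2, 3 or 4 alone (adjusted p = 0.0555 to 0.0790). Adamts10, the most abundant of the uncalled genes of this kind, had −0.12. The other uncalled ones were Adamts17 at 2.68, Adamtsl4 at 1.00 and Adamtsl2 at −0.87 (edgeR's quasi-likelihood test, adjusted p = 0.150, 0.180 and 0.593). Adamts17 was called when Naive 6 alone was left out.

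Hmcn2 encodes hemicentin-2, a very large matrix protein whose end is built like a fibulin. It had 681 counts over the 6 Naive libraries, with 42 to 261 in each, and 15 counts over the Stromal libraries, with 0 to 5 in each. All Naive libraries lay above all Stromal libraries, at 3.25 to 16.0 CPM against at most 0.314 CPM. The fitted log2 fold change was 5.63 (SE 0.76, adjusted p = 0.000327) and 4.56 without Naive 3, 4 and 5 (adjusted p = 0.0187), and its size depends on the few Stromal counts. Its relative Hmcn1 had 0.46 and was not called (−0.81 without Naive 3, 4 and 5).

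None of the other roles had a called member. Mfap4, which lines microfibrils, had a log2 fold change of −0.27, Vcan, which encodes the microfibril-binding proteoglycan versican, 0.16 and the copper pump gene Atp7a, which loads lysyl oxidases, 0.28. Ltbp1, which tethers latent TGF-beta to fibrillin, stood at 221 ± 81.0 against 145 ± 57.3 CPM (SD, n = 6 each; 0.61, adjusted p = 0.243, and 1.00 with adjusted p = 0.0572 without Naive 3, 4 and 5). Loxl2, a lysyl oxidase of collagen, showed the split seen for Fbn1, with 507, 443 and 473 CPM in Naive 1, 2 and 6 and 197, 239 and 117 CPM in Naive 3, 4 and 5 (log2 fold change −0.04, and 0.47 without the latter). The gelatinase gene Mmp2 had 32.6 to 41.2 CPM in Naive 1, 2 and 6 and 57.5 to 112 CPM in Naive 3, 4 and 5, the opposite order, and a log2 fold change of 0.08 (−0.77 without Naive 3, 4 and 5). Emilin2, a glycoprotein gene of the elastin and microfibril interface, had −0.45, and the elastin receptor gene Ctsa 0.32. The plot for these genes shows Thsd4 and Hmcn2 filled in both fits.

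**Figure D5:**
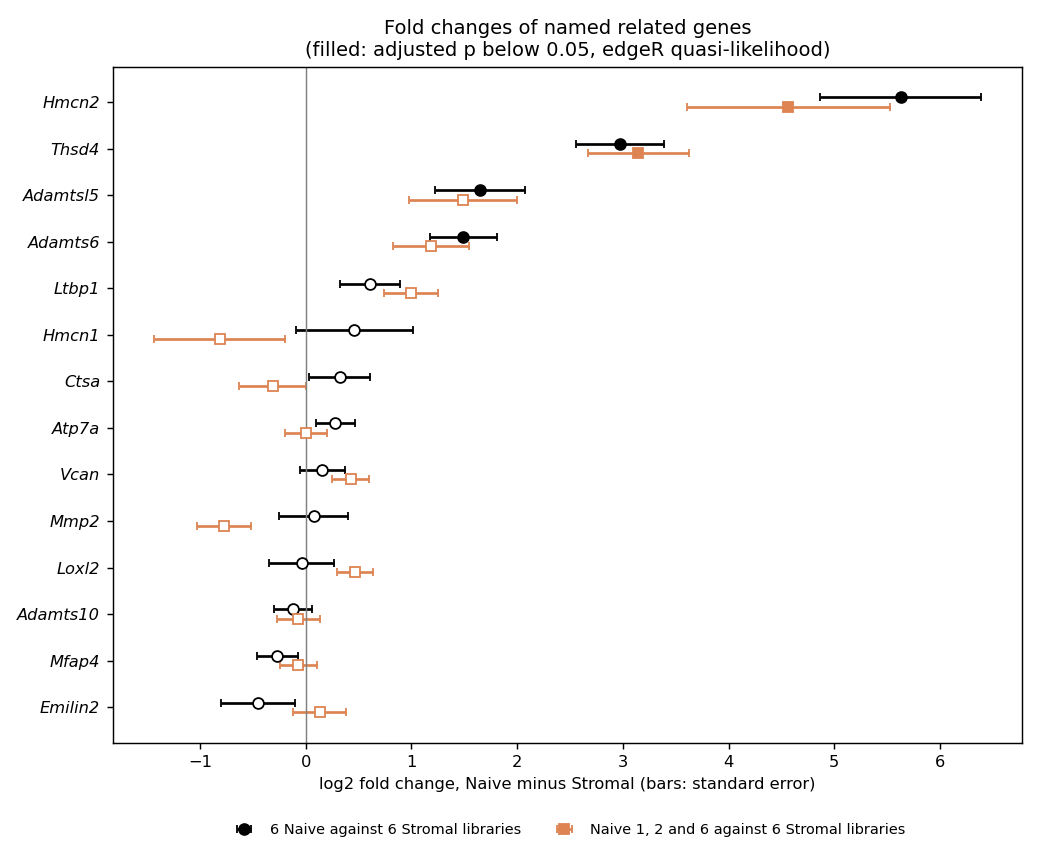
Log2 fold change, Naive minus Stromal, of the called genes that bind, mature or degrade elastic fibres and the most abundant uncalled gene of each role. Bars are 1 standard error. Circles are from all 12 libraries and squares are without Naive 3, 4 and 5. Filled symbols have an adjusted p below 0.05. Hmcn2, Thsd4, Adamtsl5 and Adamts6 are filled with all libraries, and Hmcn2 and Thsd4 without those 3.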

How the data were processed

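RNA-seq gene counts of 12 libraries, 6 Naive and 6 Stromal, were used. The deposited values are raw counts. The authors ran featureCounts 1.6.4 on paired fragments over exons, per the file headers, summed by gene of Ensembl release 84 on GRCm38, with a mapping quality of at least 10 and without strand. The exonic length of each gene is that in the deposited files. The tools cutadapt and SAMtools are named in the submitters' processing notes. Aligner: not given in the sources used here. The deposited table of the series equalled the single files in 12 of 12 libraries. Symbols were matched by Ensembl identifier for 47224 of 47729 genes.

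Genes kept by edgeR's filterByExpr were scaled by TMM factors. The test was the quasi-likelihood F test of edgeR 4.0.16 in R 4.3.3, two-sided, Naive minus Stromal, no covariate, with Benjamini-Hochberg adjustment over all genes tested. CPM are counts scaled to the TMM-adjusted library size. Log2 CPM used a prior count of 2. Ratios of counts had 0.5 added to both and were compared over the 924 assignments of the group names. Scripts were tested on simulated data. Alternatives were DESeq2 1.42.0, limma-voom (limma 3.58.1), other scalings, no filter on low counts, a replicate block, each library left out, and Naive 3, 4 and 5 left out together.

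The members and lists were chosen with earlier results of these data known. The text names all members, of the related genes those called and the most abundant uncalled gene of each role, the 5 genes most like Eln, and Rgs5 and Pdgfrb. The other uncalled fibrillin-binding ADAMTS and ADAMTS-like genes and Neu1 are named as well. Predicted genes were left out of these choices. Promoter sequences came from RefSeq. Protein sequences were not used here. Total counts were 12631266 to 18425596 per library, and the member with the fewest counts, Efemp2, had 21 to 294 per library.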

Additional observations from a re-analysis of the deposited data

Results flagged for a closer look

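In groups of 6 libraries, the highest or lowest library was set apart where its gap to the next took up an unusually large part of the range of the group (Dixon's criterion at 95%). Of 58 groups examined, 3 had such a library, where chance sets apart about 1 in 20.

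Fbn1 in Stromal 1, at a log2 CPM of 9.05 (529 CPM), lay below the other Stromal libraries, of which the next had 1015 CPM. Lox was also lowest there, at a log2 CPM of 7.42 (171 CPM), and the next library had 380 CPM. Without Stromal 1, Eln and Fbn2 changed sign, to log2 fold changes of −0.09 and −0.07, and Fbln5 and Efemp1 stayed called. The log2 ratio of Fbln5 to Eln was −5.10 in Stromal 5, where the next was −3.63, and Stromal 5 was the highest Stromal library for Eln and the lowest for Fbln5. On the second principal component of all genes that library lay at −86.6, the lowest of the 12.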

How the results depend on the processing

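The number of members called higher was 2, and 1 with limma-voom, scaling by total library size alone, no filter on low counts, the replicate block, or without Naive 3, 4 and 5. It was 1 to 3 when each library was left out. Related genes called higher were 4, 3 to 4 when each library was left out, and 2 without Naive 3, 4 and 5. No member or related gene was called lower in any of these settings or with DESeq2, RLE scaling or mitochondrial genes left out. Eln was −0.53 and Fbn2 −0.49 with limma-voom, −0.15 and −0.17 with total library size, and Mmp2 −0.020 with limma-voom. Without Naive 3, 4 and 5, Fbn1 was 0.33, Emilin2 0.13, Loxl2 0.47, Ctsa −0.31, Hmcn1 −0.81 and Mmp2 −0.77, and the log2 ratio of Fbn1 to Fbn2 −0.46. When each library was left out, log2 fold changes ranged from −0.22 to 0.28 for Eln, −0.28 to 0.015 for Fbn1, −0.23 to 0.25 for Fbn2, −0.54 to 0.080 for Efemp2, −0.025 to 0.33 for Loxl1, −0.15 to 0.21 for Mmp2 and −0.20 to 0.14 for Loxl2, and the log2 ratio of Efemp1 to Efemp2 from 1.90 to 3.04. The cause of these changes was not tested.

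Same-numbered libraries did not deviate together (correlations −0.14 to 0.09). No label pairs them, and such correlations cannot tell whether they share a mouse or a day. With the replicate block, Eln was −0.50, Fbn2 −0.45 and Mmp2 −0.072, Efemp1 was not called (2.38, adjusted p = 0.151) and 492 genes were higher and 90 lower. The best match was its own number for replicates 2 and 6. Depth limits Efemp2 (21 to 294 counts per library) and Hmcn2 (0 to 5 counts in Stromal libraries).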
